A study of Mus musculus with 4 samples.

Results

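The genes described here encode 10 enzymes that build triglyceride and phospholipid: Gpam, Agpat3, Agpat5, Lpin1, Lpin2, Dgat1, Dgat2, Cds1, Cds2 and Crls1. They were taken as every probe set whose only gene symbol in the array annotation is 1 of these names, which gave 29 of the 45037 probe sets tested and 10 of 18193 named genes, with 2 to 6 probe sets for each gene. The data are transcript levels in mouse heart on 4 single-colour Affymetrix arrays, in log2 units after RMA, a procedure that removes background, equalises the arrays and condenses the probes of a set to a single value. Of these arrays 2 hold heart RNA of wild-type C57B6 mice and 2 that of C57B6 mice with a knock-in that exchanges serine 21 of GSK-3α for alanine (S21A), all aged 3.6 months and untreated. Phosphorylation of serine 21 by Akt inhibits this kinase, and alanine cannot be phosphorylated, so the question is how cardiac transcript levels respond to an enzyme that escapes this brake. The labels state neither the sex of the mice nor whether an array holds 1 animal or a pool, so n counts arrays.

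Glycerolipid synthesis starts when an acyl chain is joined to glycerol 3-phosphate and continues with a further acylation to phosphatidate, the branch point of the pathway. Along one branch the lipins remove the phosphate and the DGAT enzymes add the last acyl chain of triglyceride, the heart's small and rapidly renewed fuel store. Along the other, phosphatidate is activated to CDP-diacylglycerol, by the CDS enzymes in the endoplasmic reticulum and by Tamm41 in mitochondria. Phosphatidylinositol, phosphatidylglycerol and cardiolipin, the signature phospholipid of the mitochondrial inner membrane, are made from CDP-diacylglycerol.

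The genes were chosen on earlier results of these same arrays, with the knock-in against wild-type differences already known, and Cds1 had stood out by its difference. Their values are therefore a description, and none of them is tested below. Each gene is described first by its representative probe set, the one with the highest mean over the 4 arrays, and then by its other probe sets. Differences are knock-in minus wild-type in log2 units, and standard errors (SE) and 95% intervals come from the limma fit across all probe sets.

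Of the 4 arrays none stood far apart by its median, which lay between 6.14 and 6.23. The SD of the log2 difference over all probe sets was 0.24 between the wild-type arrays, 0.21 between the knock-in arrays and 0.23 to 0.31 between arrays of different genotype. The 3′ minus 5′ signal of the Gapdh control, a sign of RNA quality, was 0.76 on knock-in replicate 2 and 0.54 to 0.62 on the others. Gsk3a, which carries the substitution, had values of 11.16 and 11.08 in wild-type and 10.62 and 10.80 in knock-in hearts (limma adjusted p = 0.458), and a point substitution need not alter its transcript. The 12 cardiomyocyte markers were bright on every array, with means of 14.25 and 14.27 in wild-type and 14.34 and 14.26 in knock-in hearts. Of 29 hepatocyte markers 28 were higher in the knock-in hearts, with means of 5.82 and 5.39 on the wild-type and 7.69 and 6.57 on the knock-in arrays. Albumin (Alb) read 7.33 and 5.72 against 10.81 and 9.66. Of 9 adipocyte markers 6 were higher, and Adipoq, which encodes adiponectin, was high on knock-in replicate 2 (5.23 and 5.30 against 5.13 and 6.89). Car3, the list's largest difference, was high on both knock-in arrays by its representative probe set (6.38 and 6.07 against 7.80 and 8.22), while the differences of its other 3 probe sets lay between −0.00 and 0.26. Fibroblast, endothelial and macrophage markers were higher for 8 of 8, 7 of 8 and 7 of 7 genes, with median differences of 0.17, 0.17 and 0.11. All of these markers had a mean level of at least 7, where 65% of all genes were higher with a median of 0.06. The 8 epithelial and mesothelial markers had means between 5.63 and 5.73, and 4 were higher and 4 lower. Epcam was the brightest at 8.01 and 8.03 in wild-type and 7.86 and 7.81 in knock-in hearts. Wt1 had the largest difference of that list, 0.37, with 6.32 and 6.46 against 6.59 and 6.92. The array scale holds no true zero, so no marker reads 0.

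Across the 10 enzyme genes the data show Cds1 standing apart at 0.94 and the other 9 between −0.06 and 0.27, with a median of 0.12. Of the 10, 9 had a higher mean in the knock-in hearts and Lpin1 a lower one, whereas 46.9% of all genes were higher. Genes with a mean level of at least 7 were higher in 65% of cases, and 8 of the 9 enzyme genes that bright were higher, so a higher mean was the common case at that brightness. No member passed the test over all probe sets (0 of 29 probe sets with a limma adjusted p under 0.05, against 0.00666% of all probe sets). At an unadjusted p under 0.05, 3 of the 29 were higher and 0 lower, where 5.07% of all probe sets were higher and 5.62% lower. The 3 were both Cds1 probe sets and 1453257_at of Agpat5. By gene, at the same threshold, 1 of 10 passed as higher and 0 as lower, where 5.45% of all genes were higher and 4.76% lower. That gene was Cds1, whose difference had stood out before the genes were chosen. Both knock-in arrays lay above both wild-type arrays for 6 of the 10 genes (22.5% of all genes) and below them for 0 (24.1%). Over probe sets the same held for 11 of 29 above (18.5% of all probe sets) and 3 below (26.7%). The count of higher members depended on scaling and summary. It was 10 with arrays shifted to 1 median, when 59.9% of all genes were higher, and 8 after quantile normalisation (44.8%). It was 7 after cyclic loess (48%) and 5 when all probe sets of a gene were averaged (43.3%).

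**Figure D1:**
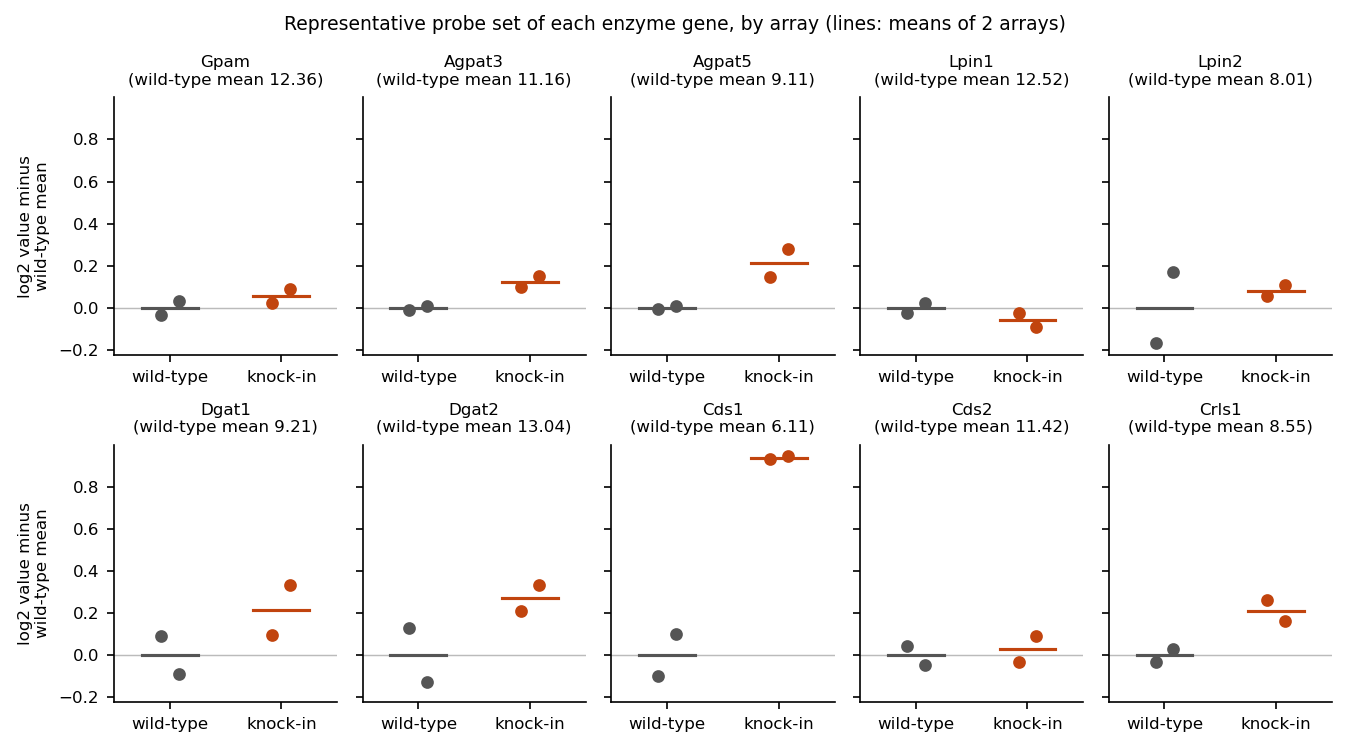
Log2 value of each gene's representative probe set on each array, minus the gene's wild-type mean, with 2 points per genotype and a line at their mean; the wild-type mean is printed above each panel. The knock-in arrays of Cds1 lie 0.94 above its wild-type mean, while the means of the other 9 genes lie between −0.06 and 0.27.

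Gpam encodes the mitochondrial glycerol 3-phosphate acyltransferase, which commits acyl chains to glycerolipid rather than to oxidation. Its representative probe set read 12.32 and 12.39 in wild-type and 12.38 and 12.45 in knock-in hearts. The groups overlapped, and the difference was 0.06 (SE 0.11, 95% interval −0.20 to 0.31), which turned to −0.01 after cyclic loess and to −0.03 when both probe sets were averaged. The other probe set was far more variable, at 9.65 and 9.17 against 9.72 and 8.85, and its difference of −0.12 had an interval from −0.83 to 0.58. The knock-in replicates of that probe set differed by 0.87, more than any genotype difference among the 9 genes other than Cds1, and leaving out replicate 1 or 2 of the knock-in group moved its difference to −0.56 or 0.31.

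Agpat3 and Agpat5 encode acyltransferases of the next step, which turn lysophosphatidate into phosphatidate. Agpat3 read 11.15 and 11.17 in wild-type and 11.25 and 11.31 in knock-in hearts by its representative probe set, so the groups did not overlap and differed by 0.12 (SE 0.10). Its 3 other probe sets went the other way, at −0.10, −0.13 and −0.22. The lowest of them, 1433819_s_at, read 9.58 and 9.36 against 9.26 and 9.25, again without overlap. The Agpat3 probe sets thus disagreed in direction, and their mean was −0.08.

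Agpat5 read 9.11 and 9.12 in wild-type and 9.26 and 9.39 in knock-in hearts, a difference of 0.21 (SE 0.11, 95% interval −0.05 to 0.47). The probe set 1453257_at gave 8.92 and 8.82 against 9.17 and 9.23, a difference of 0.32 (95% interval 0.07 to 0.58). In both, each knock-in array lay above each wild-type array. The remaining probe set was dim, with a mean of 4.82 that lies below the array medians, and its difference was 0.01.

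Lpin1 and Lpin2 encode lipins, the phosphatidate phosphatases that supply diacylglycerol, and lipin 1 also acts in the nucleus as a coactivator of fatty acid oxidation genes. Lpin1 read 12.50 and 12.55 in wild-type and 12.50 and 12.43 in knock-in hearts, a difference of −0.06 (SE 0.11, 95% interval −0.31 to 0.20) that turned to 0.00 with arrays shifted to 1 median. The second Lpin1 probe set differed by 0.03. Both intervals include 0 and end within 0.31 of it, so a change of Lpin1 beyond that size lies outside them.

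Lpin2 read 7.84 and 8.17 in wild-type and 8.06 and 8.11 in knock-in hearts, and both knock-in values fell between the wild-type ones. The difference of 0.08 (SE 0.14) turned to −0.09 without wild-type replicate 1. Its other 3 probe sets were dim, with means of 6.04, 5.99 and 3.66, and differed by −0.16, 0.25 and −0.22. No direction for Lpin2 was shared by its probe sets.

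Dgat1 and Dgat2 encode the unrelated enzymes that perform the last step of triglyceride synthesis. Dgat2 read 13.17 and 12.92 in wild-type and 13.25 and 13.38 in knock-in hearts, a difference of 0.27 (SE 0.13, 95% interval −0.04 to 0.58). The other Dgat2 probe set gave 10.92 and 10.35 against 10.97 and 10.94, a difference of 0.32 (95% interval −0.13 to 0.77). In both probe sets the knock-in arrays lay above the wild-type ones, and in both wild-type replicate 2 was the lowest array. Without that array the differences were 0.14 and 0.04, and without wild-type replicate 1 they were 0.40 and 0.61.

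Dgat1 read 9.29 and 9.12 in wild-type and 9.30 and 9.54 in knock-in hearts, a difference of 0.21 (SE 0.13). The groups were barely separated, since the lower knock-in value exceeded the higher wild-type value only in the second decimal. The other Dgat1 probe set, with a mean of 6.33 near the array medians, differed by −0.26. That probe set alone remained when possibly cross-hybridising probe sets were dropped, the representative 1418295_s_at among them. The mean of both probe sets was −0.02, so the direction of Dgat1 rested on the representative one. For the representative probe sets of Dgat1 and Dgat2, knock-in replicate 2 was the highest array, and it was also the array on which Adipoq read 6.89. The part of adipocyte RNA in these values was not tested. Of the other adipocyte markers Car3 differed by 1.79, Ucp1 by 0.30, Pck1 by 0.18, Fabp4 by 0.13, Cidec by 0.04, Cidea by −0.09, and Lep and Retn each by −0.19. In whole heart a change in the number of cells of a type and a change of RNA per cell cannot be told apart.

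**Figure D2:**
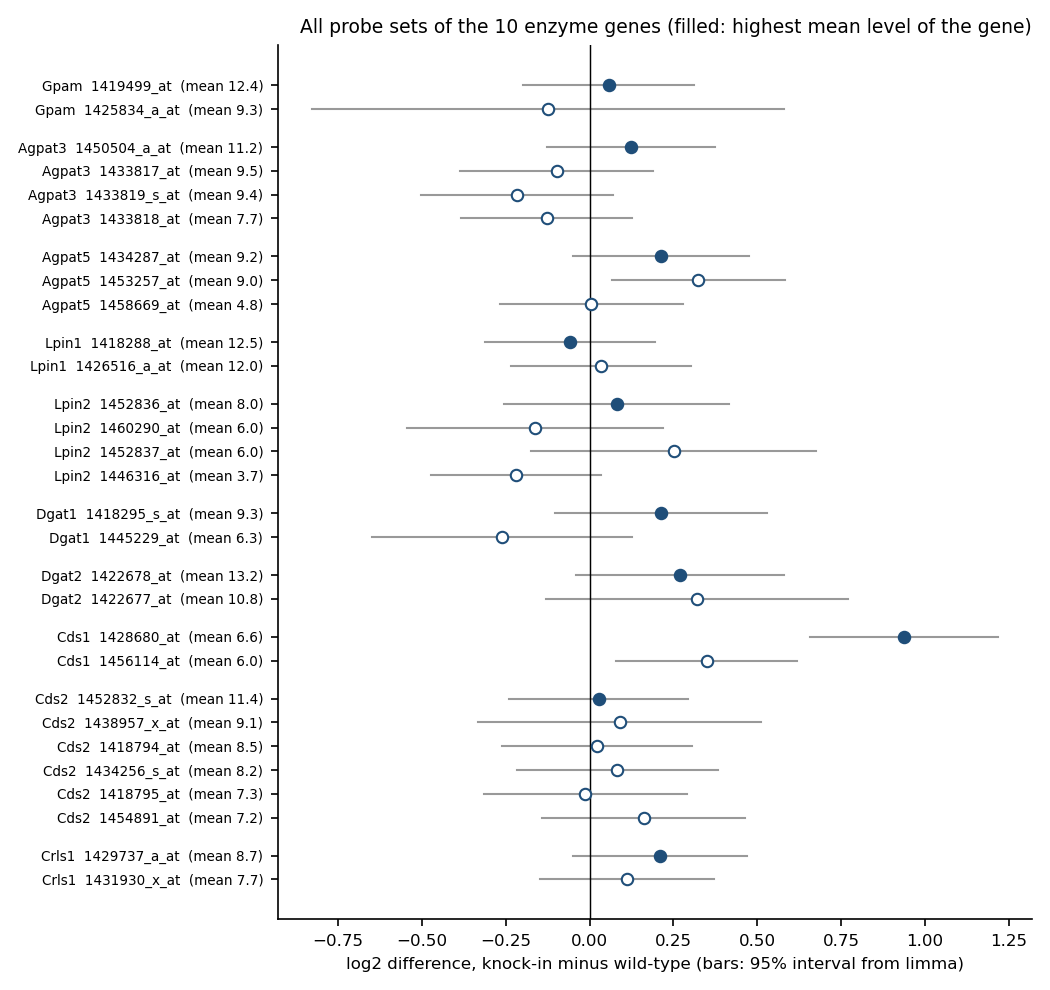
Log2 difference, knock-in minus wild-type, of all 29 probe sets of the 10 genes, with 95% intervals from limma; filled points mark the representative probe set, and the mean log2 level stands beside each identifier. The probe sets of Agpat5, Dgat2, Cds1 and Crls1 keep to 1 side of 0, and those of the other 6 genes fall on both sides.

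Cds1 and Cds2 encode the enzymes of the endoplasmic reticulum that convert phosphatidate to CDP-diacylglycerol, and they are the pair in which sister genes differed most. Cds1 read 6.01 and 6.21 in wild-type and 7.04 and 7.06 in knock-in hearts by its representative probe set 1428680_at, a difference of 0.94 (SE 0.12, 95% interval 0.66 to 1.22). Its other probe set, 1456114_at, read 5.92 and 5.76 against 6.19 and 6.20, a difference of 0.35 (SE 0.11, 95% interval 0.08 to 0.62). In both, each knock-in array lay above each wild-type array and the knock-in arrays differed by 0.01. The intervals of these 2 probe sets do not overlap, so they give Cds1 the same direction and not the same size. The wild-type means of 6.11 and 5.84 lie at or below the array medians, where an unknown share of the signal is background, and no fold is given. By representative probe set 60 of 18193 genes (0.33%), Cds1 among them, had a difference as large as that of Cds1 or larger. Cds1 was chosen with its difference known, so this rank is a description.

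Cds2 is measured by 6 probe sets, and none showed a difference beyond the spread of its arrays. The representative probe set read 11.47 and 11.38 in wild-type and 11.39 and 11.51 in knock-in hearts, a difference of 0.03 (SE 0.11, 95% interval −0.24 to 0.29). The sign of that difference turned after quantile normalisation and after cyclic loess. The other 5 probe sets differed by −0.01 to 0.16, and in 5 of the 6 the groups overlapped. The upper ends of the Cds2 intervals, at most 0.51, lie below the lower end of the interval of Cds1 probe set 1428680_at and above that of 1456114_at.

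Crls1 encodes cardiolipin synthase, which joins phosphatidylglycerol to CDP-diacylglycerol in mitochondria. It read 8.52 and 8.58 in wild-type and 8.81 and 8.71 in knock-in hearts, a difference of 0.21 (SE 0.11, 95% interval −0.05 to 0.47). Its second probe set read 7.62 and 7.70 against 7.73 and 7.81, a difference of 0.11. Both probe sets had each knock-in array above each wild-type array.

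The promoters of the CDP-diacylglycerol branch are shown because Cds1 and Cds2 catalyse the same step and differ in these data. The windows begin 250 bases before a RefSeq start site (GRCm38.p6), end just before it, and run 5′ to 3′ on the plus strand. Cds1 lies at chr5:101764880-101765092, the upstream and downstream Cds2 starts at chr2:132262898-132263147 and chr2:132285689-132285938, and the upstream Crls1 start at chr2:132846416-132846649. The Cds1 and Crls1 windows are cut to 213 and 234 bases, where the annotated gene begins, and both Cds2 windows lie inside the annotated gene, downstream of its first base. Capitals mark matches, on either strand, to the E-box CACGTG, the CCAAT box, the GC box GGGCGG, the half-site AGGTCA of nuclear receptors and the sterol response element core TCACNCCAC. No matches overlapped in these windows.
Cds1: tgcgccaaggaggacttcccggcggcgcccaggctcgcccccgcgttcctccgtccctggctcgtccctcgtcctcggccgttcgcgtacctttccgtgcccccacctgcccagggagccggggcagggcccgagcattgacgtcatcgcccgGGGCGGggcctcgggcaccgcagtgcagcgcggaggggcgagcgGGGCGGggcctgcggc
Cds2 upstream start: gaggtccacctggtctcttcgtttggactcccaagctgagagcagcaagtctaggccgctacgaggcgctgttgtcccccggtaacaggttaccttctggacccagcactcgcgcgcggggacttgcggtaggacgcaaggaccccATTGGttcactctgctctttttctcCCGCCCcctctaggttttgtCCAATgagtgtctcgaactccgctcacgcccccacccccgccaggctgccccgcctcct
Cds2 downstream start: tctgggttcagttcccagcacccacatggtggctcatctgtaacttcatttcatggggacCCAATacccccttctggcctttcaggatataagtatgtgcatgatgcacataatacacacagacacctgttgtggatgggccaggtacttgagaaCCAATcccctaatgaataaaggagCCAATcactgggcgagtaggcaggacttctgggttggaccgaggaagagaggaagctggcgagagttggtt
Crls1 upstream start: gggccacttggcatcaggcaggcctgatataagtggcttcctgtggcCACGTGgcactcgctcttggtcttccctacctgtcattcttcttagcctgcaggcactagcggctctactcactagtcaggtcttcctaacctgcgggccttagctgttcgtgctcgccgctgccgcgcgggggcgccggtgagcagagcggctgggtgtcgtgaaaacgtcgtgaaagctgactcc
In the full 250 bases before its start Cds1 held 2 GC boxes, a motif present in 32.7% of 32851 such windows, and 0 matches to the other motifs. The upstream Cds2 start held 1 GC box and 2 CCAAT boxes, and the downstream start 3 CCAAT boxes, a motif of 33.8% of windows. The upstream Crls1 start held 1 E-box, a motif of 6.02% of windows. None of the 4 windows held AGGTCA (14% of windows) or TCACNCCAC (1.05%). The Cds1 window was 77.6% G or C, above 97.6% of all windows, against 62.4% and 50.4% for the Cds2 starts. Of the 10 genes 7 had a window in the promoter table. These matches describe the letters and say nothing of binding.

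The markers of other cell types are set beside Cds1 by array. The hepatocyte markers had a mean of 7.69 on knock-in replicate 1 and 6.57 on replicate 2, while Cds1 read 7.04 and 7.06. Without knock-in replicate 1, the array with more hepatocyte transcript, the Cds1 difference was 0.94 by 1428680_at and 0.35 by 1456114_at, and without replicate 2 it was 0.93 and 0.34. Adipoq read 5.13 on knock-in replicate 1 and 6.89 on replicate 2, and Car3 read 7.80 and 8.22. The part of hepatocyte, adipocyte, fibroblast, endothelial or macrophage RNA in the differences of Cds1 and the other genes was not tested.

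**Figure D3:**
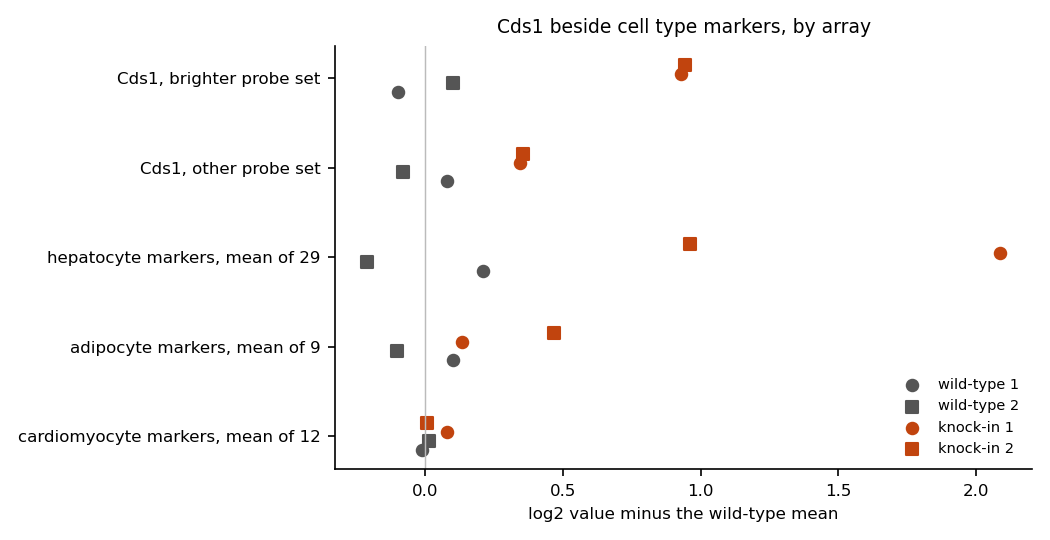
Log2 values on each array minus the wild-type mean, for both Cds1 probe sets and for the mean of 29 hepatocyte, 9 adipocyte and 12 cardiomyocyte markers; grey is wild-type, orange knock-in, circles are replicate 1 and squares replicate 2. The knock-in arrays of Cds1 differ by 0.01 in each probe set, and hepatocyte markers read 7.69 on replicate 1 and 6.57 on replicate 2.

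The genes whose 4 array values most resembled those of Cds1 were sought among 12317 genes with a mean level of at least 6, by the root-mean-square distance of deviations from the gene's mean. The closest was Hif1a, the hypoxia-inducible factor gene, at a distance of 0.04, with 9.75 and 10.02 in wild-type and 10.87 and 10.79 in knock-in hearts. Myot, which encodes the Z-disc protein myotilin, followed at 0.05 with 10.24 and 10.48 against 11.35 and 11.24. Cpxm2, a carboxypeptidase-like gene, was the third at 0.05 with 9.14 and 9.46 against 10.31 and 10.28. The likeness rests on 4 arrays that were also used to describe Cds1, and it is no measure of shared function.

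The other genes of the pathway were read from 6 lists that hold 67 genes, of which 62 had a probe set with a single symbol. None passed limma over all probe sets, with 0 higher and 0 lower (0.011% of all genes passed). At an unadjusted p under 0.05, 5 were higher and 1 lower, where 5.45% of all genes were higher and 4.76% lower. By sign 36 had a higher mean and 26 a lower one, where 46.9% of all genes were higher. The median was 0.04 against −0.01 over all genes. That split was 45 of 62 higher with arrays shifted to 1 median, when 59.9% of all genes were higher. It was 28 after quantile normalisation (44.8%) and 30 after cyclic loess (48%). Of the 51 pathway genes with a mean level of at least 7, 31 were higher. At that brightness 65% of all genes were higher and their median was 0.06, so a higher mean was the common case there.

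Among 9 measured genes of glycerol phosphate supply and acylation, 6 were higher, with a median of 0.11. Gpat3, a glycerol 3-phosphate acyltransferase of the endoplasmic reticulum, read 8.84 and 8.82 in wild-type and 9.26 and 9.32 in knock-in hearts, a difference of 0.46 (SE 0.10, limma adjusted p = 0.458). Both knock-in arrays lay well above the wild-type ones, and Gpat3 has a single probe set. Gpd1l, related to the enzyme that makes glycerol 3-phosphate, differed by 0.30 (limma adjusted p = 0.458), and a further probe set gave 0.10. Agpat1, another lysophosphatidate acyltransferase, differed by −0.03, and by −0.12 with a further probe set.

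Genes that interconvert phosphatidate and diacylglycerol split evenly, with 6 of 12 higher and a median of −0.01. The diacylglycerol kinase gene Dgkh read 6.77 and 7.07 in wild-type and 7.40 and 7.34 in knock-in hearts, a difference of 0.45 (SE 0.13, limma adjusted p = 0.458), while its other probe sets lay at −0.05 and 0.25. Dgke, also a diacylglycerol kinase gene, differed by −0.20, against 0.03 and 0.04 by further probe sets. The lipid phosphatase gene Plpp3 differed by 0.01, and by −0.27 with a further probe set.

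In the CDP-diacylglycerol branch all 6 other measured genes had a higher mean by representative probe set, from 0.04 to 0.17 with a median of 0.12. All 6 had a mean level of at least 7, where 65% of all genes were higher with a median of 0.06. None passed the test (smallest limma adjusted p = 0.579). At an unadjusted p under 0.05 there were 0 higher and 0 lower. Tamm41, the mitochondrial CDP-diacylglycerol synthase, had a difference of 0.17 (95% interval −0.11 to 0.45), with −0.09 from a further probe set. Tafazzin, which remodels cardiolipin, lay at 0.14, and at −0.33 by a further probe set. Pgs1, which makes the precursor of phosphatidylglycerol, differed by 0.04, with further probe sets between −0.18 and −0.01. None of these genes came near the 0.94 of Cds1.

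For the choline, ethanolamine and serine phospholipids the mean was higher for 10 of 13 genes and the median was 0.09. Pcyt1a, the rate-setting enzyme of phosphatidylcholine synthesis, read 9.90 and 9.88 in wild-type and 10.22 and 10.10 in knock-in hearts, a difference of 0.27 (SE 0.11, limma adjusted p = 0.461), with its other probe sets between −0.21 and 0.23. The choline kinase gene Chka differed by 0.24, against −0.21 and −0.18 by its other probe sets, and Selenoi, of phosphatidylethanolamine synthesis, by 0.05, with further probe sets between −0.08 and 0.27. Of 7 lysophospholipid acyltransferases, which exchange acyl chains of finished phospholipids, 6 were lower, with a median of −0.04. Lpcat1 differed by −0.17 (95% interval −0.47 to 0.12), with 4 further probe sets between −0.19 and −0.01. Mboat7 differed by −0.07 (further probe sets at −0.30 and 0.12) and Lpcat4 by 0.01.

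Regulators of these genes showed no common direction, with 7 of 15 higher and a median of −0.01. Insig1, which holds back the processing of SREBP transcription factors, read 6.52 and 6.42 in wild-type and 6.88 and 6.97 in knock-in hearts, a difference of 0.45 (SE 0.11, limma adjusted p = 0.458). Pparg, a driver of lipid storage genes, read 7.94 and 8.41 against 7.95 and 7.87, a difference of −0.26, and wild-type replicate 2 alone stood apart from the other 3 arrays. Mlx, the partner of the carbohydrate-response factor, differed by −0.01, and by 0.21 with a further probe set.

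**Figure D4:**
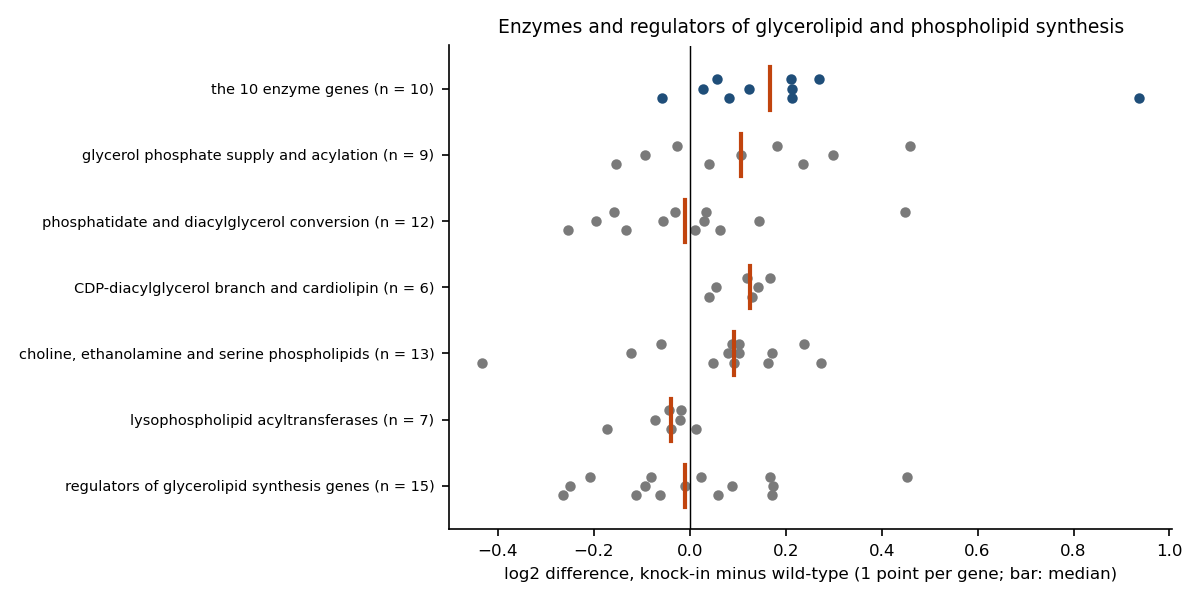
Log2 difference, knock-in minus wild-type, of each gene's representative probe set for the 10 enzyme genes and for 6 lists of other genes of the pathway; points are genes and bars are medians. By these probe sets Cds1 lies alone at 0.94, and no gene of the other lists exceeds 0.46. Further probe sets, not drawn here, run from −0.40 for Lpcat2 to 0.55 for Lpgat1, and that of Cds1 lies at 0.35.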

How the data were processed

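Per the labels and the submitters' processing notes, the deposited values are log2 RMA summaries made in Affymetrix Expression Console, with the wild-type arrays normalised only with these knock-in arrays. Its version and filters: not given in the sources used here. All 45101 probe sets were read and 64 control probe sets left out. Of 45037 tested, 34945 had 1 gene symbol, 932 several and 9160 none listed; no gene was named from several. The limma package (3.58.1, R 4.3.3) gave the differences through lmFit and eBayes without covariates, with p-values adjusted by Benjamini-Hochberg over all 45037, with a threshold of 0.05. Simulated data, 10 sets with known changes, were used to check the fit. The number of arrays limits precision (median SE 0.12), and p-values measure the spread between these arrays, which may be technical. Slides and scan dates: not given in the sources used here.

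The members and lists were chosen with earlier results of these data known. Named were all members, and per list the 2 largest and the smallest absolute differences among genes with a mean of at least 6. Alternatives covered the prior, dim and cross-hybridising probe sets, scaling, array weights, the replicate block, arrays left out and the summary per gene. Tables and plots used Python 3.11.15, pandas 2.3.3, numpy 2.4.6 and matplotlib 3.10.9. Promoters came from a RefSeq table of GRCm38.p6.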

Additional observations from a re-analysis of the deposited data

How the results depend on the processing

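With 4 arrays only large differences can pass the test. The count of probe sets called, 3, was 8 with a trended robust prior, 11 with arrays shifted to 1 median and 1 once those with a mean level under 7 were dropped, and 0 to 2 with 1 array left out (0 without knock-in replicate 1), where the lone array of a group is assumed to vary like the other group. The cause of these changes was not tested, and the last 2 settings also had fewer probe sets or arrays. The enzyme genes with a higher mean, 9 of 10, were 5 of 10 when all probe sets of a gene were averaged (43.3% of all genes). They were 8 or 9 of 10 with 1 array left out (43.6% to 52.9% of all genes). By representative probe set or a gene's averaged probe sets, Cds1, Dgat2, Agpat5 and Crls1 kept their direction in every setting that measured them. Neither Cds1 probe set reaches a mean of 7. On that measure Cds1 lay between 0.64 and 1.04, Dgat2 between 0.14 and 0.40, Agpat5 between 0.12 and 0.28 and Crls1 between 0.13 and 0.27. Agpat5 and Crls1 were lowest after quantile normalisation. The Cds1 probe set 1456114_at alone lay between 0.27 and 0.45. The dim Agpat5 probe set turned to −0.08 without wild-type replicate 1 and to −0.004 without knock-in replicate 2. On the same measure as before, signs turned in 1 or more settings for Gpam, Agpat3, Lpin1, Lpin2, Dgat1 and Cds2. With the replicate number as a block 4 probe sets were called, 9 enzyme genes were higher and 0 pathway genes were called. Deviations of same-numbered arrays correlated at 0.08 over all probe sets, and with 2 pairs the numbers are not taken to pair the arrays.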
